A study of Mus musculus with 25 samples.

Results

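Hepcidin and the genes that carry, store and release iron were followed in mouse liver. The 10 genes, Hamp, Hamp2, Bmp6, Id1, Smad7, Tfrc, Trf, Fth1, Ftl1 and Slc40a1, were chosen by name and matched to their Ensembl identifiers, and they are 10 of the 41388 genes in the files. Each had enough reads to enter the test. RNA was sequenced from the livers of 25 mice, 1 library per mouse, to ask how hepatocyte NAMPT, an enzyme of NAD salvage that makes nicotinamide mononucleotide, acts with and without SIRT1 when mice eat a Western diet (WD). Totals ran from 20166175 to 32937326 counts per library.

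All mice were males of the strain given as C57B/6J, aged 20 weeks, and all carried the Sirt1 LoxP/LoxP alleles. Mice called WT had no Cre, and mice called LKO also had Albumin-Cre, which is active in hepatocytes. All received an AAV8 vector by the tail vein, either an empty vector (EV) or one carrying NAMPT under the hepatocyte promoter of thyroxine-binding globulin. The 3 chow WT EV mice ate chow. The 6 WD WT EV, 6 WD WT NAMPT, 5 WD LKO EV and 5 WD LKO NAMPT mice ate WD for 12 weeks. Chow was given to WT EV mice only, so the diet was not compared in LKO or with NAMPT. In bulk liver, fewer cells of a type and less RNA per cell cannot be told apart.

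Hepcidin, encoded by Hamp, is a peptide hormone of hepatocytes that binds the iron exporter ferroportin (Slc40a1) and has it degraded, so that less iron enters the blood. BMP6, made mainly by the sinusoidal endothelium, raises Hamp through SMAD proteins in hepatocytes, with Id1 and Smad7 as further targets of the same signal. Inflammation raises it through IL-6 and STAT3. Iron within the cell acts separately, through iron regulatory proteins that bind hairpins, the iron-responsive elements, in the mRNAs for ferritin, ferroportin and the transferrin receptor.

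The sequences before the start sites of Hamp and Hamp2 are shown because the 2 hepcidin genes lie close together and are near copies of each other, so that what each holds for the BMP signal can be set side by side. Both stretches are RefSeq sequence of GRCm38.p6 on the minus strand of chromosome 7, from 130 to 11 bases before the annotated start. Hamp is at chr7:30944040-30944159 and Hamp2 at chr7:30924192-30924311. Capitals mark GGCGCC, the core of a BMP-responsive element, and TTCNNNGAA, the general form of a STAT site.
Hamp: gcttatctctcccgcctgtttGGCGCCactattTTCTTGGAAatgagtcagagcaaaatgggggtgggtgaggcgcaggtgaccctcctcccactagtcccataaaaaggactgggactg
Hamp2: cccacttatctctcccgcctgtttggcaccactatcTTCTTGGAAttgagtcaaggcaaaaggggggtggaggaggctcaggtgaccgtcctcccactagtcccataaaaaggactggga

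Over 247 aligned bases before the start, 227 were identical (91.9%). GGCGCC stood at -109 to -104 in Hamp, counted from the annotated start. At the aligned place Hamp2 carried the substitution G4A, counted from 1 at the first base of the site, and its searched 250 bases held no GGCGCC. TTCNNNGAA stood at -97 to -89 in Hamp and at -94 to -86 in Hamp2. Both motifs read the same on either strand apart from the free bases and do not overlap each other. Among 32851 mouse promoters of the same 250 bases, 9.59% held GGCGCC and 7.02% held TTCNNNGAA. Promoters were matched for 6 of the 10 genes, and the only other match among them was GGCGCC in 1 of the 2 Tfrc promoters, at -89 to -84.

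The hairpin loops of the iron-responsive elements are shown because they divide the genes below into those whose translation iron releases and the receptor whose mRNA iron destabilizes. They were searched in the GENCODE vM21 transcripts as a C, a stem of 5 paired bases (G with U allowed) and the 6-base loop in capitals.
Fth1, 5′ untranslated region: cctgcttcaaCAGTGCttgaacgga
Ftl1, 5′ untranslated region: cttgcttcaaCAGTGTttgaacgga
Slc40a1, 5′ untranslated region: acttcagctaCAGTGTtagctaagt
Tfrc, 3′ untranslated region: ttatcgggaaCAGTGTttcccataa

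The Tfrc 3′ untranslated region held 4 such loops, of which 1 is shown. Such a loop was found in the 5′ region of 23 of 20899 genes (0.11%) and in the 3′ region of 100 of 21685 genes (0.461%).

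Reads of 50 bases can be shared between near copies. Of the 50-base words in Hamp transcripts, 16.6% also occurred in Hamp2, and 58.4% of those in Ftl1 occurred in other genes, most often Ftl1-ps1. In Trf the share was 59.4%, nearly all with the overlapping gene Gm20425, which held 0 to 2 counts per library. Ftl1-ps1 held 149 to 428 counts against 36970 to 100300 for Ftl1. The authors counted only unique and unambiguous reads, so Hamp, Hamp2, Ftl1 and Trf are levels of the reads that could be assigned. Apart from Fth1, Ftl1 and Ftl1-ps1, genes whose symbols start with Fth or Ftl held 0 to 102 counts. Of the words in Fth1, 1.59% occurred in the processed pseudogene Gm6977, which held 38 to 151 counts.

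The labels were checked on the targeted genes. Sirt1 was at 8.86 ± 0.573 CPM (counts relative to the library total, scaled by TMM size factors; SD, n = 6) in WD WT EV and at 8.57 ± 1.34 CPM (SD, n = 5) in WD LKO EV. It was at 8.58 ± 0.617 CPM (SD, n = 6) in WD WT NAMPT and at 9.82 ± 1.36 CPM (SD, n = 5) in WD LKO NAMPT. The log2 fold change of the libraries labelled LKO against WT was -0.07 ± 0.10 (SE; limma adjusted p = 0.99) with EV and 0.19 ± 0.11 (limma adjusted p = 0.237) with NAMPT. Counts over the whole gene did not show a deletion, and directions for LKO below rest on the labels. Nampt was at 47.4 ± 6.46 CPM in WD WT EV and 59.5 ± 10.6 CPM in WD WT NAMPT (SD, n = 6 each), or 0.34 ± 0.16 on the log2 scale (limma adjusted p = 0.144). In the libraries labelled LKO it was 0.41 ± 0.16 (limma adjusted p = 0.403). Nampt was called in neither, so directions for NAMPT below rest on the labels too. The hepatocyte genes Alb, Apoa1, Ttr, Apob and Cps1 summed to 51386 to 84125 CPM in every library.

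Levels can be set side by side only per length of transcript. In WD WT EV livers the order was Fth1 (1986 ± 319 CPM per kb), Ftl1 (1865 ± 208), Hamp (940.1 ± 631), Trf (231 ± 25.3), Hamp2 (108 ± 39.8), Slc40a1 (13.1 ± 2.69), Id1 (5.94 ± 2.63), Tfrc (5.24 ± 1.80), Smad7 (4.62 ± 1.18) and Bmp6 (1.60 ± 0.359), all SD over 6 mice. The ranges over mice overlapped among Fth1, Ftl1 and Hamp, among Id1, Tfrc and Smad7, and for Slc40a1 with Id1. Hamp, Trf and Hamp2 did not overlap each other. Hamp ran from 422 to 2056 CPM per kb among these 6 mice.

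Calls below are genes with a Benjamini-Hochberg adjusted p of 0.05 or less over the 14065 genes tested in a limma fit of all 25 libraries, in which each library had a quality weight. Log2 fold changes come from that weighted fit and are given with their SE. Where groups share libraries, so do the comparisons.

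**Figure D1:**
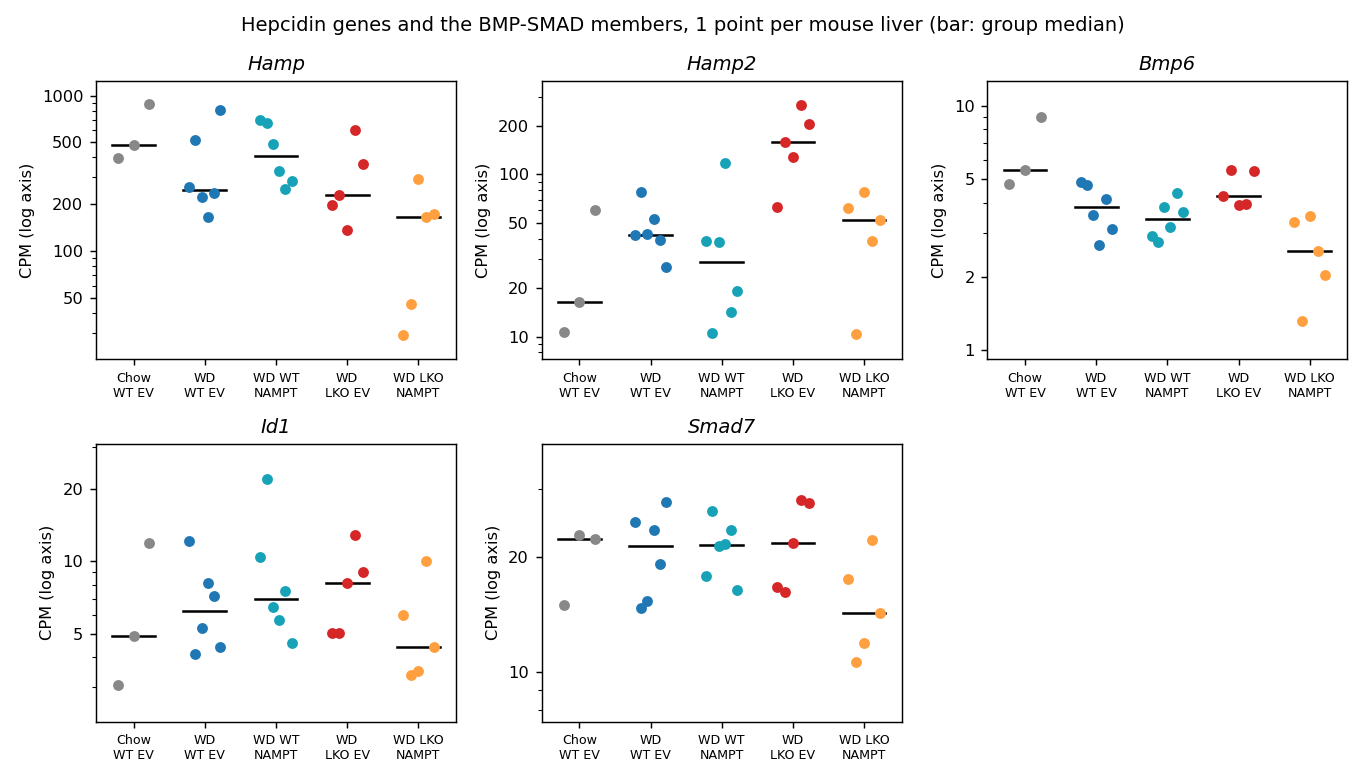
CPM on a log axis of Hamp, Hamp2, Bmp6, Id1 and Smad7 in each mouse of the 5 groups, with a bar at the group median. The WD LKO NAMPT mice hold the lowest Hamp value (29.0 CPM) and the lowest Bmp6 value (1.32 CPM), and the WD LKO EV mice hold the highest Hamp2 values.

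Hepcidin differed between the genotypes under NAMPT in the reported fit. Hamp was lower in WD LKO NAMPT than in WD WT NAMPT livers, and so was Bmp6, the ligand that raises it. Of the 10 genes, 2 were called in this comparison, both lower, where 7.96% of all tested genes were called. None of the 10 had groups apart, as 1.39% of all tested genes did. The median log2 fold change of the 10 was -0.34, beside -0.01 for all genes tested.

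Hamp in the 5 WD LKO NAMPT livers was at 29.0, 45.5, 166, 172 and 291 CPM. In the 6 WD WT NAMPT livers the lowest was 249.6, the median 406 and the highest 699 CPM. A single WD LKO NAMPT liver reached into the WT range, and the other 4 were below every WT liver. Hamp was 4.34-fold lower, a log2 fold change of -2.12 ± 0.49 (limma adjusted p = 0.0199).

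Bmp6 in the same WD LKO NAMPT livers, in the order of their Hamp values above, was at 3.35, 1.32, 2.54, 2.04 and 3.53 CPM. In WD WT NAMPT the lowest was 2.76, the median 3.43 and the highest 4.40 CPM. The groups overlapped, with 3 LKO livers below all WT livers. Its log2 fold change was -0.84 ± 0.24 (limma adjusted p = 0.0376). Bmp6 was the least abundant of the 10 genes, with 40 to 228 counts per library.

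Neither call was made by the other count tests. The edgeR quasi-likelihood test gave Hamp -1.68 on the log2 scale with an adjusted p of 0.127 and Bmp6 -0.44 with an adjusted p of 0.279. DESeq2 gave adjusted p-values of 0.0549 for Hamp and 0.255 for Bmp6, and without quality weights limma gave 0.0841 and 0.235. Leaving out WD LKO NAMPT replicate 2, which held the lowest Bmp6, ended both calls, at -1.58 (adjusted p = 0.188) for Hamp and -0.44 (adjusted p = 0.356) for Bmp6. Replicate 5 of that group and WD WT NAMPT replicate 3 also ended both calls when left out, and WD WT NAMPT replicate 2 and WD LKO NAMPT replicate 3 ended that of Bmp6. The direction was the same in all of these fits.

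Smad7 and Id1, targets of the same signal, had fitted values below 0 without passing the test. Smad7, the inhibitory SMAD, was at 10.6, 11.9, 14.3, 17.5 and 22.1 CPM in WD LKO NAMPT and at a lowest of 16.4, a median of 21.5 and a highest of 26.3 CPM in WD WT NAMPT. Its log2 fold change was -0.63 ± 0.21 (limma adjusted p = 0.0619). Id1, a helix-loop-helix inhibitor of transcription, had a log2 fold change of -0.66 ± 0.37 (limma adjusted p = 0.24). Tfrc had 0.52 ± 0.19 (limma adjusted p = 0.0823). Without WD LKO NAMPT replicate 4, Smad7 (-0.80, adjusted p = 0.0213) and Tfrc (0.66, adjusted p = 0.0286) were called as well as Hamp and Bmp6. Smad7 was also called without WD LKO NAMPT replicate 1 (-0.69, adjusted p = 0.0358) and without WD WT NAMPT replicate 6 (-0.64, adjusted p = 0.0447). With other single libraries left out the values came as near to 0 as -0.33 for Smad7 (limma adjusted p up to 0.468) and 0.29 for Tfrc (up to 0.478). Id1 came to -0.26 (limma adjusted p up to 0.771).

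Hamp2 had no stable direction in this comparison. Its median was 52.6 CPM in WD LKO NAMPT and 28.8 CPM in WD WT NAMPT, with ranges of 10.4 to 77.6 and 10.5 to 117.6 CPM that overlapped. The weighted fit gave a log2 fold change of -0.55 ± 0.57 (limma adjusted p = 0.545), and the other ways of fitting gave -0.63 to 0.50. It turned to 0.10 without WD WT NAMPT replicate 4 and to 0.29 without WD LKO NAMPT replicate 2.

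The other gene lists are given beside the 7.96% of all tested genes called in this comparison, and no difference from that share was tested. Among the other genes of the hepcidin signal, 1 of 19 tested was called, Hfe2, which encodes the BMP coreceptor hemojuvelin. It was higher in WD LKO NAMPT, at 85.4 ± 9.24 CPM (SD, n = 5) against 65.9 ± 7.08 CPM (SD, n = 6), or 0.34 ± 0.09 on the log2 scale (limma adjusted p = 0.0326). The ligand gene Bmp2, Hfe, Tfr2 and the hepcidin suppressor Tmprss6 were among the 18 that did not pass. Of the 19, 15 had values above 0, with a median of 0.09 on the log2 scale. Of 10 inflammatory inputs to hepcidin, Il1b was called and lower, at -1.22 ± 0.33 (limma adjusted p = 0.0292). Of 12 acute phase genes 2 were called and lower, the serum amyloid gene Saa3 (-1.86 ± 0.50, limma adjusted p = 0.0304) and Itih3 (-0.62 ± 0.14, limma adjusted p = 0.0213), and the median of that list was -0.34 on the log2 scale. Isca1 was called and higher (0.31 ± 0.09, limma adjusted p = 0.0315) as the only one of 9 iron-sulfur genes. None of 11 uptake, 6 storage and 11 heme genes was called.

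Cell type markers are given beside the same 7.96% of all tested genes called, and no difference from that share was tested. None of 7 sinusoidal endothelial markers, the cells that make BMP6, was called, and their sum ran from 309 to 338 CPM in WD WT NAMPT and from 317 to 371 CPM in WD LKO NAMPT. Among 6 erythroid genes, all with values above 0 and a median of 0.84, Hbb-bs was called and higher (1.35 ± 0.34, limma adjusted p = 0.0228), with sums of 364 to 1503 CPM in WD WT NAMPT and 667 to 1578 CPM in WD LKO NAMPT. Among 6 Kupffer cell genes, all with values below 0 and a median of -0.59, Marco was called and lower (-2.14 ± 0.67, limma adjusted p = 0.0491), with sums of 218 to 628 and 228 to 465 CPM. Among 4 cholangiocyte genes, all with values below 0 and a median of -0.88, Sox9 was called and lower (-1.44 ± 0.38, limma adjusted p = 0.0282), with sums of 8.02 to 23.1 and 3.58 to 13.3 CPM. All 4 neutrophil genes tested had values below 0 (median -1.07), with sums of 1.51 to 15.7 and 1.74 to 10.9 CPM, and so had all 5 stellate cell genes (median -0.20), with sums of 284 to 399 and 291 to 404 CPM, but none of these was called. None of the marker lists was at 0. The part of these lists and of the inflammatory and acute phase genes in the Hamp and Bmp6 values was not tested.

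**Figure D2:**
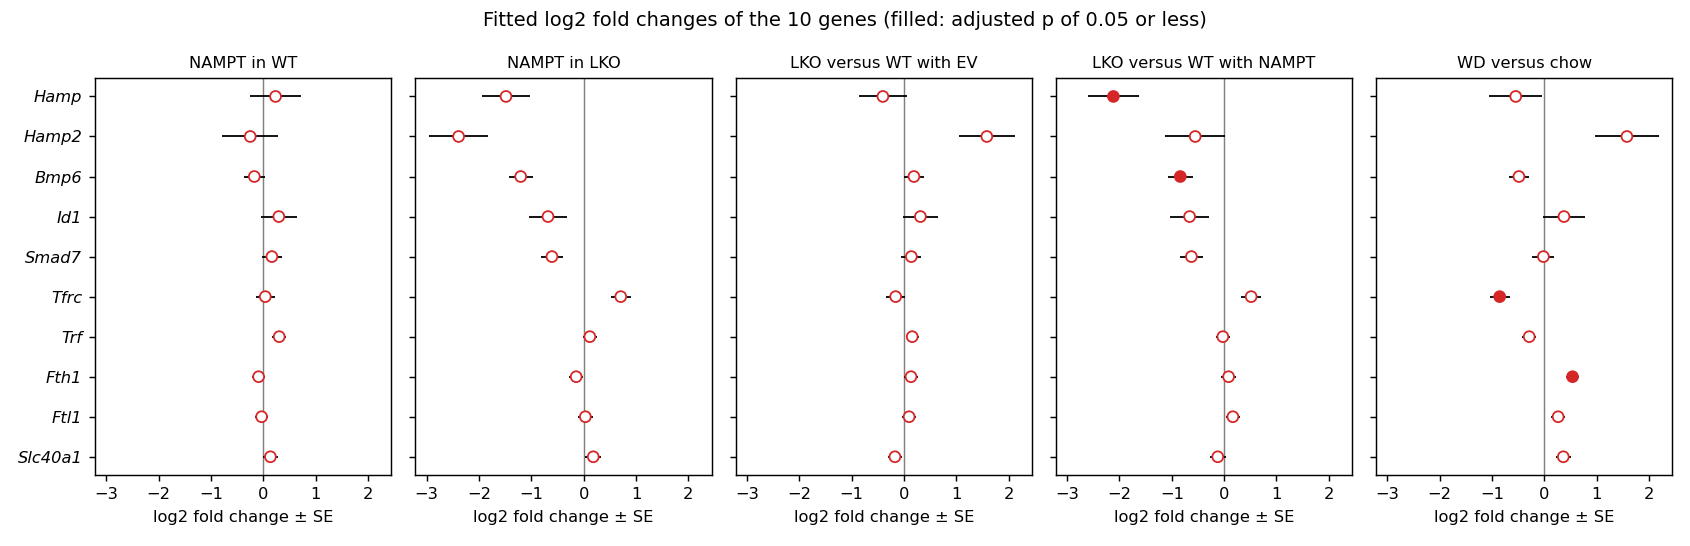
Fitted log2 fold changes with their SE for the 10 genes in the 5 comparisons between groups, with filled points for genes called at an adjusted p of 0.05 or less. Filled points stand at Hamp and Bmp6 in LKO versus WT with NAMPT and at Tfrc and Fth1 in WD versus chow.

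Within the libraries labelled LKO, Hamp, Hamp2, Bmp6, Id1 and Smad7 had fitted values below 0 with NAMPT and Tfrc one above 0, and none was called. The 19 other genes of the hepcidin signal were split, with 9 above and 10 below 0 and a median of -0.01. The limma fit called 0 of the 10 genes, where it called 0.00711% of all tested genes, a single gene. At an unadjusted p below 0.05 there were 5 of the 10 genes, and 1355 of all 14065. DESeq2 and both edgeR tests also called 0 of the 10. The median log2 fold change of the 10 was -0.37, beside 0.02 for all genes tested.

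Bmp6 was the only one of the 10 genes whose groups did not overlap here, as 1.15% of all tested genes did. It was at 3.92, 3.94, 4.27, 5.42 and 5.46 CPM in WD LKO EV, and every one of the 5 WD LKO NAMPT livers, given above, was lower. On the log2 scale Bmp6 differed by -1.20 ± 0.23 (limma adjusted p = 0.0691). Without WD LKO NAMPT replicate 1 it passed (-1.31, adjusted p = 0.0471), and without replicate 2 the log2 fold change was -0.80 (adjusted p = 0.719).

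Hamp2 was at 62.7, 129, 157.5, 205 and 269 CPM in WD LKO EV and at 10.4, 38.8, 52.6, 62.3 and 77.6 CPM in WD LKO NAMPT. A single WD LKO EV liver, the lowest, lay in the range of the NAMPT livers. On the log2 scale Hamp2 differed by -2.39 ± 0.57 (limma adjusted p = 0.149). With 1 library left out this ran from -2.67 to -1.55 (limma adjusted p of 0.0948 to 0.746).

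Hamp was at 136, 197, 229, 365 and 597 CPM in WD LKO EV, and the ranges overlapped. Its log2 fold change was -1.48 ± 0.46 (limma adjusted p = 0.277). Smad7 had -0.61 ± 0.21 (limma adjusted p = 0.33) and Id1 -0.68 ± 0.36 (limma adjusted p = 0.569). With 1 library left out Hamp ran from -1.78 to -0.95, Smad7 from -0.78 to -0.31 and Id1 from -0.95 to -0.28, and none was called.

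Tfrc, the receptor that takes up transferrin-bound iron, was at 24.7, 24.8, 26.5, 26.6 and 31.4 CPM in WD LKO EV and at 30.5, 38.1, 39.3, 48.8 and 54.9 CPM in WD LKO NAMPT. The groups met at a single pair of livers. Tfrc differed by a log2 fold change of 0.71 ± 0.19 (limma adjusted p = 0.184). No gene of any pathway or marker list was called in this comparison. All 4 cholangiocyte genes had values below 0 (median -1.25) and 3 of them an unadjusted p below 0.05, with sums of 5.95 to 10.3 CPM in WD LKO EV and 3.58 to 13.3 CPM in WD LKO NAMPT. Their part in the values above was not tested.

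In WT livers, NAMPT called 0 of the 10 genes, where 13.4% of all tested genes were called. At an unadjusted p below 0.05 there was 1, Trf, and DESeq2 and both edgeR tests called 0. No gene's groups were apart, against 0.96% of all tested genes. Hamp was at a lowest of 166, a median of 248 and a highest of 806 CPM in WD WT EV, within which every WD WT NAMPT liver lay, and its log2 fold change was 0.23 ± 0.48 (limma adjusted p = 0.787). Hamp2 had -0.25 ± 0.53 (limma adjusted p = 0.791).

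Trf, the plasma carrier of iron, was at a lowest of 662, a median of 780.3 and a highest of 846 CPM in WD WT EV and at 806, 1007 and 1249.9 CPM in WD WT NAMPT. Its ranges overlapped, and the log2 fold change was 0.30 ± 0.13 (limma adjusted p = 0.112). Scaled by library size alone, which shifts the median of all genes in this comparison by 0.16 on the log2 scale, Trf was called.

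The other iron genes are given beside the 13.4% of all tested genes called in WT livers under NAMPT, and no difference from the 10 was tested. Of 11 heme genes 2 rose and 1 fell. Hmox1, which breaks heme down, rose by 0.79 ± 0.19 (limma adjusted p = 0.0128), from 24.1 ± 5.40 to 43.7 ± 17.1 CPM (SD, n = 6 each). Hpx, the plasma heme carrier hemopexin, rose by 0.78 ± 0.19, and Abcg2, an exporter that carries porphyrins, fell by 0.52. Cd163, the hemoglobin scavenger receptor, held the value farthest from 0 in that list (-1.08) and did not pass.

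Of 11 uptake and transport genes, Steap2 (0.93 ± 0.30) and Steap4 (0.63 ± 0.16), metalloreductases, rose, and Slc39a8, a metal importer, fell by 0.32. Hfe2 fell by 0.29 (limma adjusted p = 0.0335) and was the only one of 19 hepcidin signal genes called. Fgl1, the largest change of that list at 0.64, did not pass. Iscu, a scaffold for iron-sulfur clusters, fell by 0.24 as the only one of 9 called, and Glrx5 held the largest value there at -0.30. None of 6 storage and regulatory protein genes was called, with Aco1 the farthest from 0 at -0.24.

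The inflammatory, acute phase and marker genes stand beside the same 13.4% of all tested genes called. Il1b rose by 1.13 ± 0.31 (limma adjusted p = 0.0212) as the only one of 10 inflammatory inputs. Of 12 acute phase genes 4 rose (Saa1, Saa3, Orm1 and Orm2) and none fell, with Saa3 the largest at 1.57 ± 0.46. Of 6 Kupffer cell genes 3 rose (Cd5l, Marco and Adgre1), with sums of 230.2 to 341 CPM in WD WT EV and 218 to 628 CPM in WD WT NAMPT. The neutrophil gene S100a9, the stellate cell gene Des and the endothelial gene Pecam1 also rose, and the endothelial genes Clec4g and Fcgr2b fell. Their part in the values above was not tested.

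Under EV, the libraries labelled LKO and WT differed in 0 of the 10 genes, where 0.00711% of all tested genes were called. At an unadjusted p below 0.05 there was 1 of the 10, Hamp2, and 891 of all tested genes, and DESeq2 and both edgeR tests called 0 of the 10. None had groups apart, against 0.59% of all tested genes. Hamp2 ran from 26.98 to 78.2 CPM with a median of 42.4 CPM in WD WT EV, and 4 of the 5 WD LKO EV livers were above that range. The log2 fold change was 1.58 ± 0.53 (limma adjusted p = 0.599), while Hamp had -0.40 ± 0.46 (limma adjusted p = 0.975). No gene of any pathway or marker list was called. Of 6 erythroid genes 5 had values above 0 and an unadjusted p below 0.05 (median of the list 0.76), with sums of 493 to 1209 CPM in WD WT EV and 874 to 2094 CPM in WD LKO EV, and their part in the Hamp2 value was not tested.

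Whether NAMPT acted differently in the genotypes was tested as an interaction, its log2 fold change in LKO minus that in WT. The limma fit called 0 of the 10 genes, where 0.00711% of all tested genes were called, and 5 of the 10 had an unadjusted p below 0.05, as did 2986 of all tested genes. The edgeR quasi-likelihood test and DESeq2 also called 0. The log2 differences were -1.03 ± 0.31 for Bmp6 (limma adjusted p = 0.0895), -2.14 ± 0.78 for Hamp2 (limma adjusted p = 0.132) and -1.72 ± 0.67 for Hamp (limma adjusted p = 0.151). Smad7 had -0.77 ± 0.29 (limma adjusted p = 0.138) and Tfrc 0.67 ± 0.26 (limma adjusted p = 0.151). Thus the NAMPT effect was not shown to differ between genotypes for any of the 10, except that Bmp6 was called without WD LKO NAMPT replicate 1 (adjusted p = 0.0401). With other single libraries left out Bmp6 came as near to 0 as -0.63 (limma adjusted p up to 0.322). Hamp2 came to -1.29, Hamp to -1.19, Smad7 to -0.47 and Tfrc to 0.45.

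The 2 hepcidin genes were also set against each other within each library, as Hamp2 in percent of the counts of both, which does not depend on scaling between libraries. The share was 4.08 ± 2.0% in chow WT EV (SD, n = 3), 14.2 ± 6.76% in WD WT EV (SD, n = 6) and 8.73 ± 8.90% in WD WT NAMPT (SD, n = 6). It was 36.1 ± 9.27% in WD LKO EV and 30.0 ± 21.5% in WD LKO NAMPT (SD, n = 5 each).

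In WD LKO EV the shares ran from 24.2 to 48.5%, and in WD WT EV from 3.24 to 24.4%, so that the groups met at their ends. The difference was 21.9 percentage points (exact two-sided permutation test, p = 0.00649, adjusted over 10 tests p = 0.0649). With NAMPT the LKO livers ran from 18.6 to 68.3% and the WT livers from 1.54 to 26.4%, a difference of 21.3 percentage points (exact permutation p = 0.013, adjusted p = 0.0649). Both missed the threshold after adjustment. Without WD LKO EV replicate 1 the EV difference passed, at 24.9 points (exact permutation adjusted p = 0.0476), and without WD WT NAMPT replicate 4 the NAMPT difference passed, at 24.9 points (exact permutation adjusted p = 0.0397). Without WD LKO NAMPT replicate 1, which held the share of 68.3%, the NAMPT difference was 11.8 points (exact permutation adjusted p = 0.159). NAMPT against EV differed by -5.45 points in WT (exact permutation adjusted p = 0.383) and by -6.05 points in LKO (exact permutation adjusted p = 0.754). With 1 liver left out the WT difference ran from -3.41 to -8.99 points, the latter without WD WT NAMPT replicate 4 (exact permutation adjusted p = 0.0595). The LKO difference ran from -2.94 to -15.6 points, the latter without WD LKO NAMPT replicate 1 (exact permutation adjusted p = 0.0529). WD against chow differed by 10.1 points (exact permutation adjusted p = 0.208). Since 16.6% of Hamp words occur in Hamp2, the share is that of the reads that could be assigned to either gene.

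**Figure D3:**
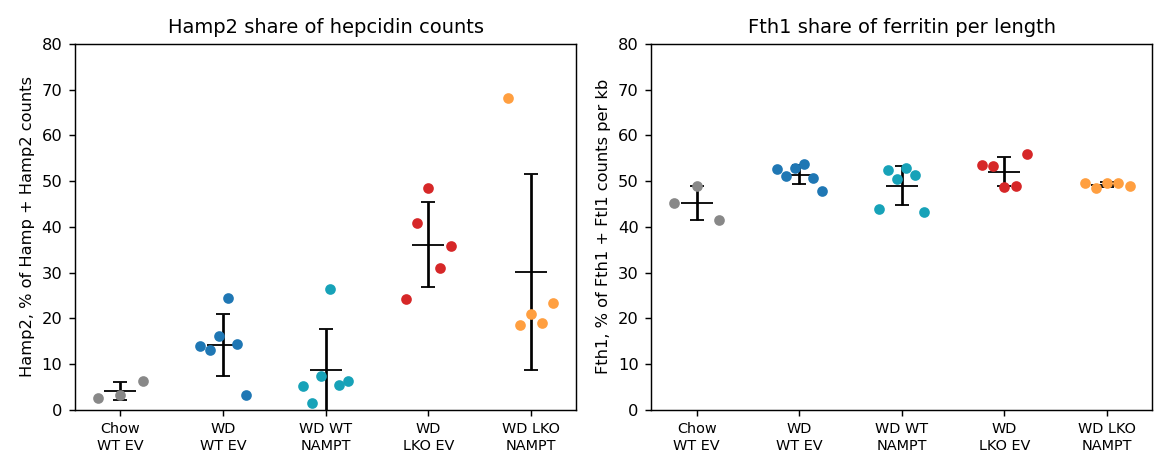
Percent share of Hamp2 in the counts of both hepcidin genes (left) and of Fth1 in the ferritin counts per kb (right), 1 point per mouse with mean and SD per group. The Hamp2 share stands higher in both LKO groups than in the WT groups with overlap, while the Fth1 share stays between 41.5 and 56.0% in every mouse.

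The Western diet was compared with chow in WT EV livers. Tfrc was lower on WD and Fth1, the ferritin heavy chain, was higher. These 2 of the 10 genes were called, where 22% of all tested genes were called, so the count is near the background and is no result about the set. The median log2 fold change of the 10 was 0.12, beside 0.00 for all genes tested.

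**Figure D4:**
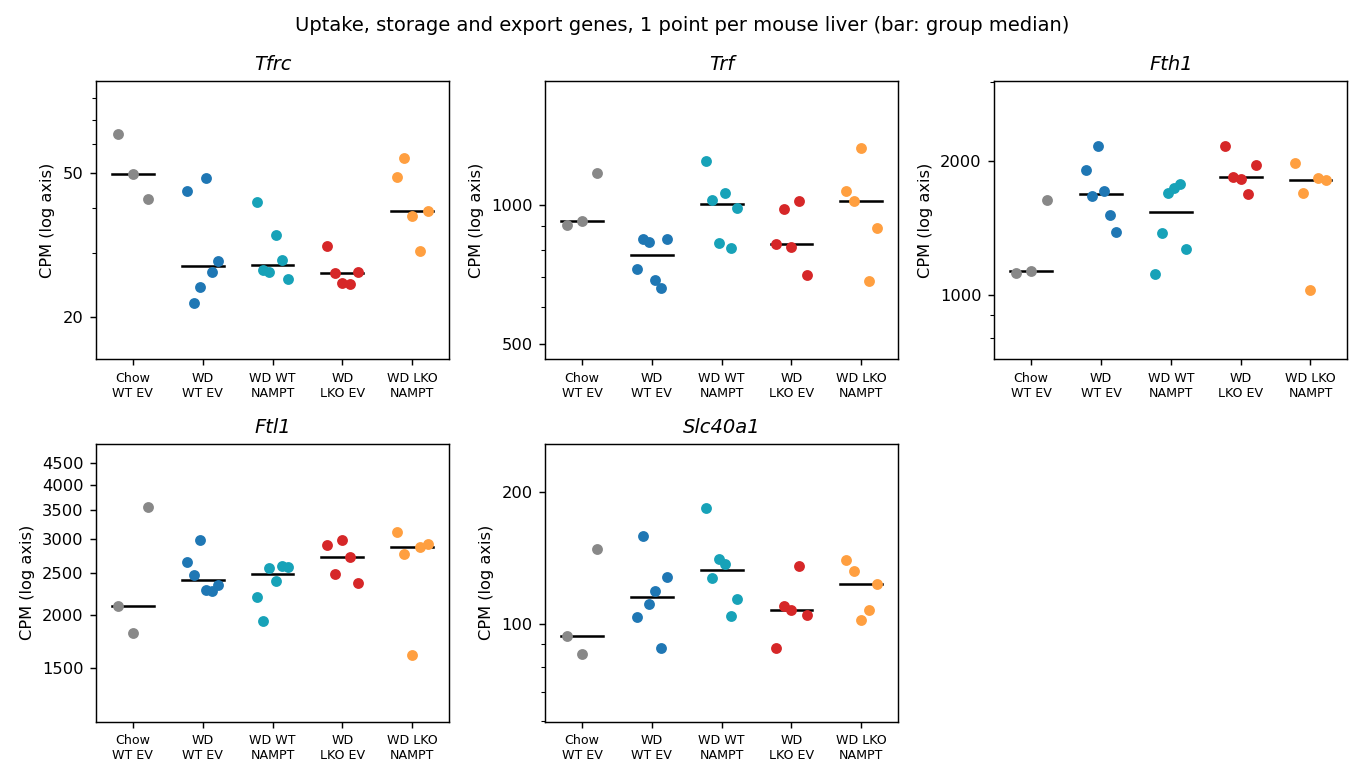
CPM on a log axis of Tfrc, Trf, Fth1, Ftl1 and Slc40a1 in each mouse of the 5 groups, with a bar at the group median. Tfrc in chow livers stands at 42.3 to 63.8 CPM, with 4 of the 6 WD WT EV livers below 42.3 CPM.

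Tfrc was at 42.3, 49.7 and 63.8 CPM on chow and at a lowest of 21.9, a median of 27.7 and a highest of 48.5 CPM on WD. The groups overlapped, with 2 WD livers inside the chow range. The log2 fold change was -0.85 ± 0.19 (limma adjusted p = 0.00224), and the edgeR quasi-likelihood test gave -0.68 with an adjusted p of 0.0465. With only 3 chow livers, the call ended without chow replicate 1 (-0.63, adjusted p = 0.134) or replicate 2 (-0.81, adjusted p = 0.0718).

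Fth1 was at 1121, 1127 and 1631 CPM on chow and at a lowest of 1386, a median of 1684 and a highest of 2155 CPM on WD. The chow liver with the highest value lay among the WD livers. The log2 fold change was 0.54 ± 0.13 (limma adjusted p = 0.0043). The edgeR quasi-likelihood test gave 0.41 with an adjusted p of 0.188, and without chow replicate 1 or 2 the adjusted p was 0.296 or 0.329.

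Chow replicate 3 stood apart from the other chow livers. It held the highest chow value of Hamp (885 CPM), Hamp2 (60.2 CPM), Bmp6 (8.99 CPM), Id1 (12.0 CPM), Trf (1178 CPM), Fth1, Ftl1 (3563 CPM) and Slc40a1 (149 CPM), and its quality weight in the fit was 0.608 beside 1.805 and 2.504 for the others. Without it 5 of the 10 genes were called, Tfrc lower and Fth1 (0.60), Ftl1 (0.35), Slc40a1 (0.44) and Hamp2 (1.91) higher on WD, with adjusted p-values of 0.00175 to 0.0402. With it Slc40a1 (0.36 ± 0.15, adjusted p = 0.0806), Hamp2 (1.58 ± 0.61, adjusted p = 0.0661) and Ftl1 (0.26 ± 0.13, adjusted p = 0.162) were not called in the reported fit. Hamp2 was called when only the compared groups were fitted (limma adjusted p = 0.0184), and Slc40a1 without WD WT EV replicate 7 (limma adjusted p = 0.035). Without chow replicate 1 or 2 instead, Ftl1 turned to -0.03 and -0.13, Slc40a1 dropped to 0.11 and 0.04, and Hamp2 to 0.63 and 0.94 (limma adjusted p = 0.7 and 0.59).

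Hamp itself did not pass on WD, at 396, 484 and 885 CPM on chow and a log2 fold change of -0.55 ± 0.51 (limma adjusted p = 0.465). Bmp6 was at 4.80, 5.43 and 8.99 CPM on chow and at a lowest of 2.70, a median of 3.85 and a highest of 4.85 CPM on WD, and the log2 fold change was -0.49 ± 0.20 (limma adjusted p = 0.0797). The edgeR exact test and DESeq2 called Bmp6 lower, as did limma with library size alone, with 2 surrogate variables and without chow replicate 1 (-0.84, adjusted p = 0.0391). Trf was the only one of the 10 whose groups were apart, as were those of 16.1% of all tested genes, with chow at 906 to 1178 CPM above the WD highest of 846 CPM. Its log2 fold change was -0.29 ± 0.13 (limma adjusted p = 0.118).

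The other iron genes and the markers are given beside the 22% of all tested genes called on WD, and no difference from that share was tested. Of 19 hepcidin signal genes 1 was called, Smad1 (-0.22), and 1 of 10 inflammatory inputs, Inhbb (1.44 ± 0.43), whose activin B also raises hepcidin. Slc39a14, an importer of iron not bound to transferrin, rose by 0.38 and Steap4 by 0.73 among 11 uptake genes. The iron regulatory protein gene Ireb2 fell by 0.37 and the iron chaperone gene Pcbp2 rose by 0.28 among 6 storage genes. Alas1, the entry enzyme of heme synthesis, rose by 1.396 ± 0.333 (limma adjusted p = 0.00413), and Slc48a1 and Abcg2 rose too, among 11 heme genes. Of 9 iron-sulfur genes Iscu and Glrx5 rose and Hspa9 fell. Of 12 acute phase genes Saa1, Saa2 and Lcn2 rose and Fga, Fgb, Fgg and Itih3 fell. Of 6 Kupffer cell genes Cd5l rose (1.06), while Marco had -1.20 and did not pass. Of 7 endothelial genes Lyve1 rose and Kdr fell, of 5 stellate cell genes Lrat rose and of 5 hepatocyte genes Cps1 fell. Their part in the iron gene values was not tested.

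The 2 ferritin chains were set against each other in the same way, and no difference passed. The Fth1 share of ferritin counts per kb was 45.2 ± 3.77% in chow (SD, n = 3) and 51.4 ± 2.09% in WD WT EV (SD, n = 6), a difference of 6.19 percentage points (exact two-sided permutation p = 0.0238, adjusted over 10 tests p = 0.0794). In WD WT NAMPT it was 49.0 ± 4.35% (SD, n = 6), in WD LKO EV 52.1 ± 3.17% and in WD LKO NAMPT 49.2 ± 0.478% (SD, n = 5 each). The other 4 differences ran from -2.82 to 0.632 points with adjusted p-values of 0.286 to 0.903 by the exact permutation test.

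Ferroportin mRNA was called in no comparison of the reported fit. Slc40a1 means among WD groups ran from 109 ± 17.3 CPM in WD LKO EV (SD, n = 5) to 135 ± 27.9 CPM in WD WT NAMPT (SD, n = 6), and its 4 log2 fold changes among WD groups lay between -0.17 and 0.18, none called. Ftl1, the light chain, lay between -0.03 and 0.17 in the same comparisons.

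Hamp was last compared with the other 9 genes over the 25 livers, on log2(CPM + 0.5) with each group's mean removed. By Pearson's r over all 25 livers the values farthest from 0 were those with Fth1 (Pearson r = -0.441, permutation p = 0.0607, Spearman rho = -0.367, permutation p = 0.0865) and Tfrc (Pearson r = -0.423, permutation p = 0.0641, Spearman rho = -0.359, permutation p = 0.111). Adjusted over the 9 relations these were 0.288 for both Pearson values and 0.266 for both Spearman values, by permutation within groups. Without the 2 livers farthest from the median of Hamp, r was -0.215 with Fth1 and -0.399 with Tfrc, while Slc40a1 took 0.529 and Smad7 0.454. By Spearman's rho Hamp2 stood first (rho = 0.4, permutation p = 0.0629, Pearson r = 0.299, permutation p = 0.191). With Bmp6 Pearson's r was 0.147 and with Id1 0.209, and the smallest adjusted p of the 9 relations was 0.266.

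Over all 14064 other genes tested, the 5 with the highest r with Hamp on the same scale were Dhx9 (0.745), Tlk2 (0.714), Zmynd11 (0.713), Fga (0.692) and Smad9 (0.662), which took r of 0.563 to 0.66 without those 2 livers. These were picked as the highest of many, and the points share their library and its scaling, so the values are a description.

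**Figure D5:**
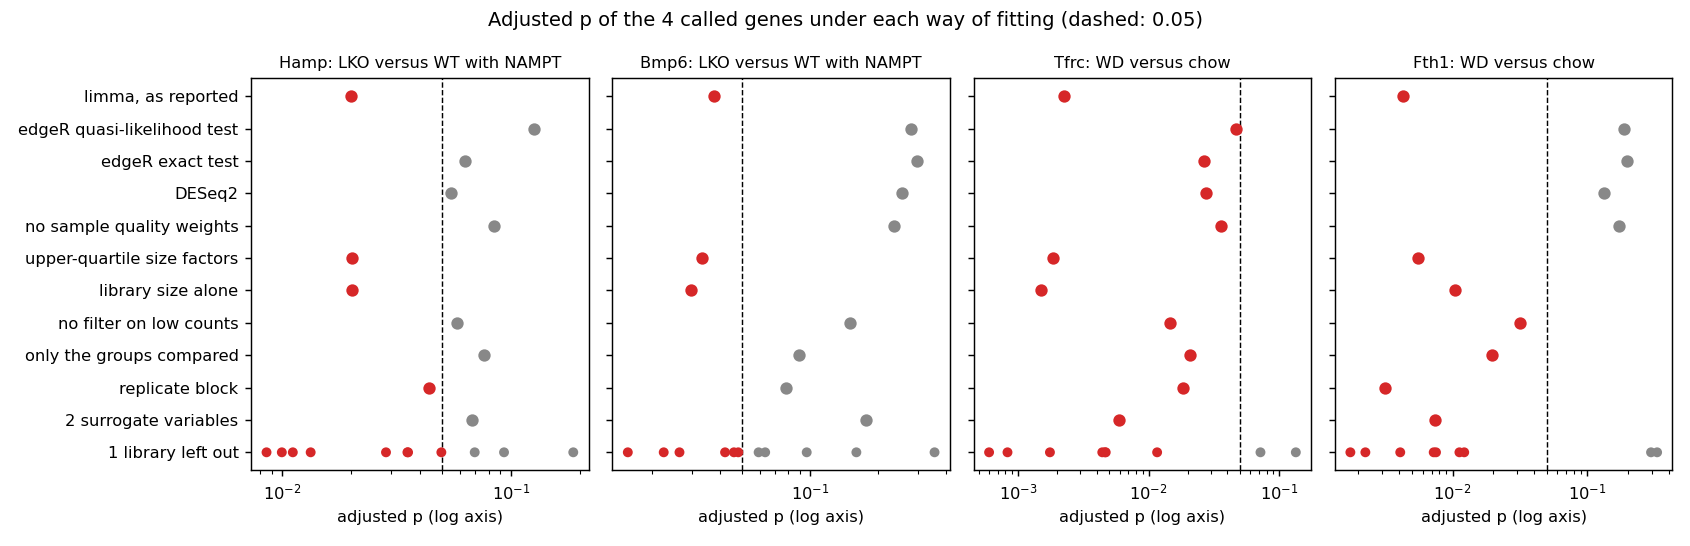
Adjusted p on a log axis of the 4 called genes under the reported limma fit, each other way of fitting and with 1 library left out, with a dashed line at 0.05 and red points at or below it. Tfrc stays at or below 0.05 in all fits of the full data, whereas Hamp, Bmp6 and Fth1 lie above it in the edgeR and DESeq2 tests.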

How the data were processed

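Liver poly-A RNA was sequenced as single-end reads of 50 bases. Per the labels' processing notes, the authors used bcl2fastq, STAR 2.5.1a, GRCm38 and featureCounts 1.4.6-p5 of Subread, and whether strand was used is not given in the sources used here. Deposited values per gene were raw counts, CPM computed by the authors from those counts, and RPKM computed by the authors with gene length. Both were recomputed from the counts within a relative deviation of 5.9e-14, and counts alone were used further.

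Of 41388 identifiers, 40340 had a symbol in GENCODE vM21. Genes above 1 CPM in at least 2 libraries were kept and 4 ribosomal RNA genes left out, giving 14065. The fit used TMM factors (edgeR 4.0.16) and voomWithQualityWeights (limma 3.58.1, R 4.3.3) on all 25 libraries, after the study's methods. Alternatives were the edgeR quasi-likelihood and exact tests, DESeq2 1.42.0, no weights, other scaling, no filter, the compared groups only, a replicate block, 2 surrogate variables (sva 3.50.0) and leaving out each library. Scripts were tested on simulated data. Shares were tested by exact permutation. CPM on the log scale took a pseudocount of 0.5, and correlations used 100000 permutations within groups.

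The genes, gene lists and tests were chosen with earlier results of these data known. Text names the 10 genes, called genes of the lists, each pathway list's largest change with NAMPT in WT, and the 5 genes most like Hamp. Libraries of 1 group differed by more than sampling noise (lowest chi-square per degree of freedom 13.7). The treatment label names SIRT1 as the insert, and titles, which name NAMPT, were followed. Labels give no batch.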

Additional observations from a re-analysis of the deposited data

Results flagged for a closer look

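In 40 groups of 5 or 6 livers, 4 values stood apart from the rest of their group by a test of the gap at the edge, which chance passes in about 1 of 20 groups. Hamp2 in WD WT NAMPT replicate 4 was at 117.6 CPM, above 10.5 to 39.1 CPM in the others. Id1 in WD WT NAMPT replicate 2 was at 22.2 CPM, above 4.58 to 10.4 CPM. Tfrc in WD LKO EV replicate 1 was at 31.4 CPM, above 24.7 to 26.6 CPM. Ftl1 in WD LKO NAMPT replicate 3 was at 1612 CPM, below 2769 to 3115 CPM, and the same liver held the lowest Fth1 of its group (1024 CPM).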

How the results depend on the processing

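LKO versus WT with NAMPT called 2 of the 10 genes, and 0 in the edgeR quasi-likelihood and exact tests, DESeq2, without quality weights, without the filter, with only the compared groups and with 2 surrogate variables. With 1 library left out it called 0 to 4. WD versus chow called 2, 1 in the edgeR quasi-likelihood test and without weights, and 3 with library size alone or 2 surrogate variables (with Bmp6) and with only the compared groups (with Hamp2). In the edgeR exact test and DESeq2 its 2 were Tfrc and Bmp6, and with 1 library left out it called 0 to 5. NAMPT in WT called 0, 1 when scaled by library size alone, and 0 with any library left out. NAMPT in LKO and the interaction called 0, and 0 to 1 with 1 library left out, and LKO versus WT with EV called 0 in every fit. The cause was not tested. The Hamp2 share difference ran from 18.8 to 24.9 points with EV and from 11.8 to 24.9 points with NAMPT when 1 library was left out, and each passed once, as given above. The Fth1 share differences between genotypes turned sign, from -0.35 to 1.48 with EV (below 0 without WD LKO EV replicate 5 or WD WT EV replicate 8) and from -0.96 to 0.98 with NAMPT (below 0 without WD WT NAMPT replicate 1 or 6). Over all genes, LKO versus WT with NAMPT called 1120, against 45 (edgeR quasi-likelihood), 173 (edgeR exact), 294 (DESeq2) and 0 to 2287 with 1 library left out (0 without WD LKO NAMPT replicate 2). NAMPT in WT called 1890, against 428 (edgeR quasi-likelihood), 192 without weights, 79 with 2 surrogate variables and 132 to 2846 with 1 library left out (132 without WD WT NAMPT replicate 3), and WD versus chow 3101, against 1201 without weights and 843 without chow replicate 2. Bmp6 rests on 40 to 228 counts per library.

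With the replicate number as a block, LKO versus WT with NAMPT called 1 gene, Hamp (-2.004), and the Fth1 share differences over same-numbered mice were -0.23 with EV and -0.96 with NAMPT. Same-numbered libraries correlated from -0.324 to 0.367 with each group's mean removed. With 2 to 5 such pairs per comparison, and no other pairs set beside them, this cannot decide whether the numbers pair the mice. The block changed no other count of the 10 genes.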
